A study of Mus musculus with 17 samples.

Results

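The RNAs described here are 9 noncoding transcripts of mouse bone marrow: Malat1, Neat1, Rn7sk, Rmrp, Rpph1, Terc, Gas5, Snhg1 and Kcnq1ot1. They were taken by symbol from the deposited gene counts, where they fill 11 of 56305 rows, because Rmrp and Terc are each listed under 2 gene identifiers. The 17 libraries came from total RNA of leukaemic bone marrow (acute myeloid leukaemia, AML, in the C57BL/6 strain), and every group carried the Dnmt3aR878H/+ and Npm1cA/+ alleles. Of these, 9 libraries were labelled Mt1ko, the label for a CRISPR-Cas9 knock-down of metallothionein 1 (Mt1), and 8 were labelled control, with both leukaemia alleles and no knock-down named. The authors also summed the libraries into 3 Mt1ko samples (libraries 4-6, 10-12 and 16-18) and 3 control samples (libraries 1-3, 7-9 and 14-15). The labels call each library a technical replicate, give no age and do not say whether the 6 sums are separate mice. A p-value here therefore weighs a group difference only against the scatter among these sums, and part of that scatter may be technical. The question put to the series was how transcription differed after the knock-down.

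Most messenger RNAs leave the nucleus with a poly(A) tail, but many abundant noncoding RNAs do neither. Malat1 lies in nuclear speckles, where splicing factors gather, and Neat1 is the scaffold of the neighbouring paraspeckles. RNA polymerase III makes Rn7sk, the 7SK RNA that holds the elongation factor P-TEFb inactive, and also Rpph1 and Rmrp, the RNA subunits of RNase P, which trims tRNA precursors, and of RNase MRP, which cuts ribosomal RNA precursors. Terc is the template RNA of telomerase. Gas5 and Snhg1 are spliced host genes whose introns carry small nucleolar RNAs, and Kcnq1ot1 is a long antisense RNA that silences imprinted genes on the paternal chromosome. The library kit starts from total RNA with random priming, so RNAs without a poly(A) tail can be read.

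Stretches of 4 members are shown, with features of their sequence in capitals. All are from the GENCODE M21 transcripts of build GRCm38, written as DNA, 5′ to 3′, on the minus strand. Rn7sk is a single exon of 331 bases at chr9:78175303-78175633, and its first 107 bases are shown (chr9:78175527-78175633). The capitals mark GATC, the letters of the motif by which HEXIM proteins bind 7SK in human cells. GATC is its own reverse complement, and at least 3 copies also stand in the first 331 bases of 7.99% of the 129282 transcripts that are as long as Rn7sk or longer.
Rn7sk: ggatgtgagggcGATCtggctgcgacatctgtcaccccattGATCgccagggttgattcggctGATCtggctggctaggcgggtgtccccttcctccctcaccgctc
Rpph1 is a single exon of 319 bases at chr14:50807449-50807767, and bases 152 to 253 are shown (chr14:50807515-50807616). The capitals mark a stretch of 21 bases that occurs at bases 182 to 202 and again, directly after, at bases 203 to 223.
Rpph1: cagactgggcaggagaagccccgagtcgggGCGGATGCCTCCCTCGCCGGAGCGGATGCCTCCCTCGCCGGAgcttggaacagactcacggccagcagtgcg
Rmrp is a single exon of 281 bases at chr4:43492783-43493063. The capitals mark the 271 bases that are identical to the second row named Rmrp, which starts at base 6.
Rmrp: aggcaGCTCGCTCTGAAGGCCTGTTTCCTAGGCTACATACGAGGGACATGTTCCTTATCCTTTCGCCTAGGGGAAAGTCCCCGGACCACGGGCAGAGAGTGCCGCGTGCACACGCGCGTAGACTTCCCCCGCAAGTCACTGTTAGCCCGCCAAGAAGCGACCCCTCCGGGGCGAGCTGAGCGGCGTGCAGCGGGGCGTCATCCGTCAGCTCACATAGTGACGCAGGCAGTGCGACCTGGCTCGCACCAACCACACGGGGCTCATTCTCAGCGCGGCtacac
Of Malat1, an RNA of 6983 bases at chr19:5795690-5802672, bases 6596 to 6761 near the annotated 3′ end are shown (chr19:5795912-5796077). The capitals mark 2 uridine-rich tracts, TTTTTCTTTT and TTTTGCTTTT, and 1 adenosine-rich tract (a run of at least 5 A, then GC and 4 A), which fold into a triple helix that protects the 3′ end in place of a tail. The tRNA-like RNA that follows the adenosine-rich tract is cut off by RNase P, the enzyme that contains Rpph1. Read on the transcript strand only, these 3 tracts stand within 110 bases of each other in 1 of 141767 annotated transcripts, that of Malat1. The tracts searched for were those of Malat1 itself, so its own match was given. The count cannot show whether other transcripts hold similar tracts in other letters.
Malat1: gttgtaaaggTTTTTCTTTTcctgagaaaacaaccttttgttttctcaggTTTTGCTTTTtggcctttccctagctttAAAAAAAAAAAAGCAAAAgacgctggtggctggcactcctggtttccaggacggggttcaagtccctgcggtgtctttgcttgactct

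Library totals ranged from 27124722 to 38645072 counts, and levels are given as counts per 1000000 counts (CPM) of a library, with no other scaling unless stated. Mt1 itself was at 41.8 to 87.2 CPM in 8 of the 9 libraries labelled Mt1ko and at 326.2 CPM in the library labelled Mt1ko with number 6, against 347.5 to 471.3 CPM in the 8 control libraries, so the Mt1 level of library 6 went against its label. It is part of Mt1ko sample 4-6. Libraries 10 to 12, which form 1 Mt1ko sample, stood apart from the other 14. Between 21.9% and 30.2% of their counts fell on mitochondrial ribosomal RNA, against 4.58% to 11.2%, and they had 11548 to 13174 genes with a count against 14823 to 17739. The summed level of 8 mast cell markers was 2006 to 5299 CPM in libraries 10 to 12 and 6.47 to 1691 CPM in the others. Monocyte and macrophage markers were present in both groups. The 8 listed summed to 6406 to 8942 CPM in Mt1ko and 6763 to 11235 CPM in control libraries. Among them Lyz2, a lysozyme, averaged 3562 ± 891 CPM in Mt1ko and 3479 ± 1882 CPM in control samples (SD, n = 3 sums each, scaled by TMM). Neutrophil markers were far lower, and 8 of them summed to 7.23 to 130 CPM in Mt1ko and 9.15 to 134 CPM in control libraries.

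Malat1 was the most abundant row of the whole table by mean level after both mitochondrial ribosomal RNAs, with 14273624 counts in all. It took 1.37% to 4.54% of the counts of a library, and 81.8% to 90.04% of all counts on rows annotated as lincRNA. All 9 members together took 1.85% to 5.26%. Since counts grow with transcript length, the members were ranked by CPM per kilobase of exon. By this measure Rn7sk was highest, with a median over 17 libraries of 7472 CPM per kb, followed by Malat1 at 3939 and Rpph1 at 3346 CPM per kb. The ranges of Malat1 (1967 to 6509 CPM per kb) and Rpph1 (2251 to 4129 CPM per kb) overlapped, and that of Rn7sk (5677 to 10789 CPM per kb) overlapped that of Malat1 but lay above that of Rpph1. Rmrp followed at 448 CPM per kb, and its range of 291 to 828 CPM per kb lay below all of these.

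**Figure D1:**
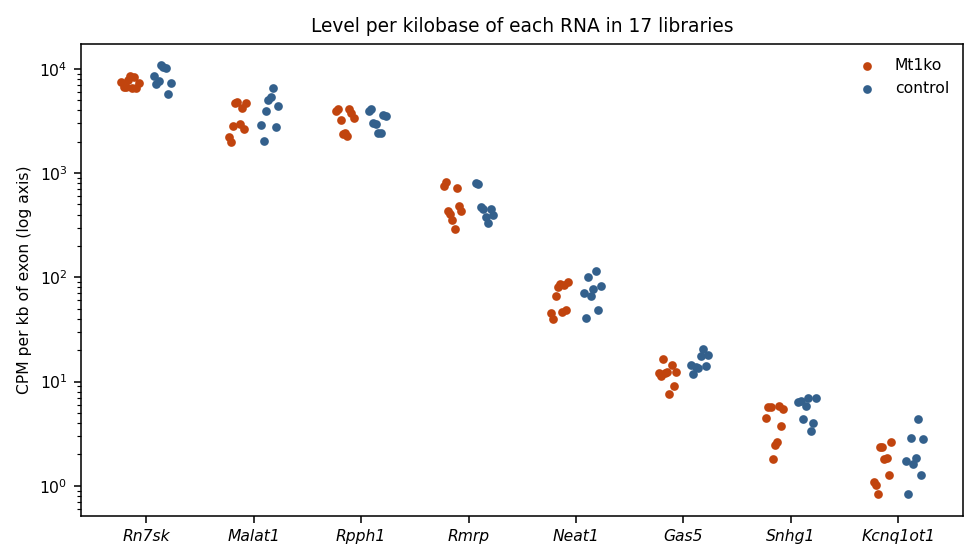
Level of each RNA per kilobase of exon in the 9 Mt1ko libraries (left of each pair) and the 8 control libraries (right), on a log axis; each point is 1 library, and Terc is not drawn because its counted row has no annotated length here. Rn7sk, Malat1 and Rpph1 stand at 1967 CPM per kb or more, and Kcnq1ot1, read over 93092 bases, is lowest at 0.83 to 4.39 CPM per kb.

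The spliced and very long RNAs were far lower per length. Neat1 had a median of 71.3 CPM per kb over an annotated length of 20771 bases, Gas5 of 13.5 CPM per kb, Snhg1 of 5.49 CPM per kb and Kcnq1ot1 of 1.81 CPM per kb. The range of Neat1 (40.1 to 116 CPM per kb) lay above that of Gas5 (7.65 to 20.6 CPM per kb), and Gas5 lay above Snhg1 (1.79 to 7.01 CPM per kb), which overlapped Kcnq1ot1 (0.83 to 4.39 CPM per kb). The order was the same with the longest annotated transcript as the length. That length differs from the exon length only for Gas5 (2556 against 3760 bases) and Snhg1 (2728 against 2969 bases). For the remaining members the levels could not change, and no shorter length was tried for Neat1.

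Several rows lie on the same stretch of genome as a member, and their counts were checked. The second Rmrp row, nested in the first, held 0 counts in all 17 libraries, so every Rmrp read was given to the longer row. Apart from that pair, no annotated transcript matched Rn7sk, Rmrp or Rpph1 at 90% identity over 80% of their length. Inside Gas5 the 10 small nucleolar RNA rows summed to a mean of 0.103 CPM, and 5 of them were at 0. Inside Snhg1 the 8 such rows summed to 1.84 CPM, nearly all of it on Snord22, at 1.83 CPM, and 4 were at 0. Whether fragments of these introns were counted on the host rows was not tested.

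Opposite strands were checked as well, since no source used here gives the strand setting of the counting. Kcnq1, the potassium channel gene that runs opposite to Kcnq1ot1, held 0 counts in all 17 libraries. Zbtb37, which overlaps the start of Gas5 in the opposite direction, averaged 18.8 CPM over libraries. Ccdc107, opposite Rmrp, averaged 5.81 CPM, and Gm37376, inside Malat1 on the other strand, averaged 0.985 CPM. Gas5 itself averaged 51.2 CPM and Rmrp 144.9 CPM, and without the strand setting reads of the overlapping stretches cannot be told apart.

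Terc was the only member that was hardly detected. Its counted row held 289 counts in 12 libraries: 66, 25 and 23 in Mt1ko libraries 4 to 6, 0 in each of Mt1ko libraries 10 to 12, and 31, 1 and 2 in Mt1ko libraries 16 to 18, against 9, 0 and 36 in control libraries 1 to 3, 31, 0 and 34 in control libraries 7 to 9, and 19 and 12 in control libraries 14 and 15. A second row named Terc held 23 counts in Mt1ko library 10 and 87 in control library 2, and no library had counts on both rows. A count of 0 on the counted row allows up to 3 counts, which is 0.0900 to 0.1001 CPM in libraries 10 to 12. This limit covers counting error on that row only. The second row was at 0.766 CPM in Mt1ko library 10 and at 2.59 CPM in control library 2. Terc levels therefore overlapped between Mt1ko and control and varied within single samples, from 1 to 31 counts in Mt1ko sample 16-18.

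**Figure D2:**
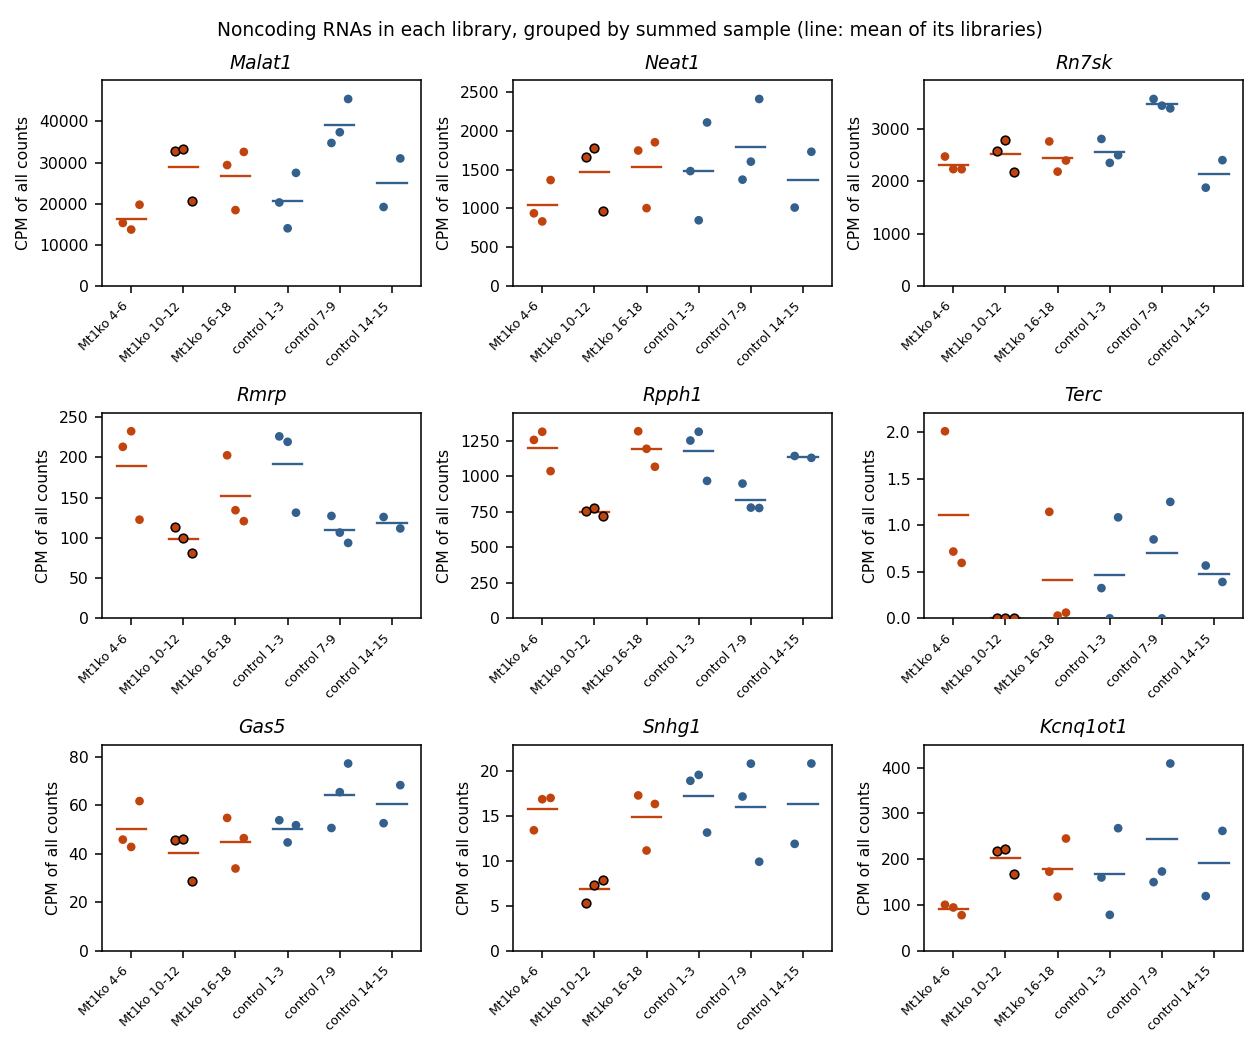
Level of each RNA in every library, in plain CPM on axes that start at 0, with Mt1ko samples to the left (orange) and control samples to the right (blue); points are libraries, lines are the mean of a sample's libraries, and black rims mark libraries 10 to 12. In each panel the Mt1ko and control libraries overlap, and Malat1 spans 13738 to 45450 CPM.

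The 3 Mt1ko samples were then compared with the 3 control samples in a fit across 16666 genes (edgeR's quasi-likelihood test with Benjamini-Hochberg adjustment), with levels scaled by TMM, a factor that corrects each sample for its most abundant and most changed genes. None of the 9 members passed an adjusted p of 0.05 and none had Mt1ko and control samples that did not overlap on this scale. Over all genes, 0% were called, 1.03% had an unadjusted p under 0.05, 2.74% had all Mt1ko samples above all control samples and 4.36% all below. No member had an unadjusted p under 0.05. DESeq2 called 1 gene, Mt1, limma-voom called 0, and neither called a member. The fitted log2 fold change of Mt1ko over control was above 0 for 2 members and below 0 for 7, with a median of -0.07, against a median of -0.01 over all genes, of which 8051 were above and 8615 below 0. Without Mt1ko sample 10-12, 3 members were above 0 and the median was -0.15. In bulk RNA, fewer cells of a type and less RNA per cell cannot be told apart.

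Malat1 and Neat1, the RNAs of nuclear bodies, varied between samples of 1 group as much as between groups. Malat1 was at 16400, 34157 and 25851 TMM-scaled CPM in Mt1ko samples 4-6, 10-12 and 16-18, against 20023, 36715 and 23705 in control samples 1-3, 7-9 and 14-15. Samples 4-6 of Mt1ko and 1-3 of control were the lowest of their groups, samples 10-12 of Mt1ko and 7-9 of control the highest, and the groups overlapped over most of their range. The log2 fold change was -0.07 (SE 0.34, 95% interval with bounds of -0.86 and 0.71, adjusted p = 1.00 by edgeR's quasi-likelihood test), and an exact two-sided permutation test, whose smallest possible p is 0.1, gave p = 0.9. Neat1 was at 1057, 1736 and 1475 TMM-scaled CPM in the Mt1ko samples, against 1434, 1653 and 1292 in the control samples. The Mt1ko samples included both the highest and the lowest Neat1 value, and the log2 fold change was -0.04 (SE 0.21, bounds -0.52 and 0.44).

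The RNA polymerase III transcripts also overlapped between Mt1ko and control samples. Rn7sk was at 2303, 2967 and 2359 TMM-scaled CPM in Mt1ko samples 4-6, 10-12 and 16-18, against 2464, 3304 and 2031 in control samples 1-3, 7-9 and 14-15, with the highest and the lowest value both in control. Its log2 fold change was -0.03 (SE 0.21, bounds -0.53 and 0.46). Rpph1 was at 1193, 882 and 1152 TMM-scaled CPM in the Mt1ko samples, against 1140, 800 and 1084 in the control samples. In each group 1 sample was low, 10-12 in Mt1ko and 7-9 in control, and the log2 fold change was 0.09 (SE 0.19, bounds -0.35 and 0.54). Rmrp was at 186, 116 and 145 TMM-scaled CPM in the Mt1ko samples, against 185, 105 and 114 in the control samples. The highest values of both groups nearly coincided, and the log2 fold change was 0.15 (SE 0.26, bounds -0.45 and 0.75). The exact permutation tests of the RNA polymerase III transcripts gave p = 1 for Rn7sk and 0.5 for both Rpph1 and Rmrp.

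The host genes Gas5 and Snhg1 had fitted fold changes below 0 in every alternative run, but the Mt1ko and control samples overlapped. Gas5 was at 50.6, 47.4 and 43.2 TMM-scaled CPM in the Mt1ko samples, against 48.4, 60.1 and 57.4 in the control samples. Only control sample 1-3 lay inside the range of the Mt1ko samples, and the log2 fold change was -0.23 (SE 0.14, bounds -0.57 and 0.10, adjusted p = 1.00 by edgeR, exact permutation p = 0.2). Snhg1 was at 15.8, 8.00 and 14.3 TMM-scaled CPM in the Mt1ko samples, against 16.6, 15.6 and 15.4 in the control samples. Its log2 fold change of -0.32 (SE 0.29, bounds -0.99 and 0.35) rested mainly on Mt1ko sample 10-12, and without it the value was -0.07. Without TMM scaling, Snhg1 was at 15.8, 6.81 and 14.7 CPM in the Mt1ko samples, against 17.1, 16.4 and 16.1 CPM in the control samples. On that scale all Mt1ko samples were below all control samples, as for 6.49% of genes. Kcnq1ot1 was at 89.9, 238 and 173 TMM-scaled CPM in the Mt1ko samples, against 164, 218 and 179 in the control samples. The Mt1ko samples held both its highest and its lowest value, and the log2 fold change was -0.16 (SE 0.32, bounds -0.90 and 0.58), or -0.50 without Mt1ko sample 10-12. The counted Terc row had a fitted value of -0.12 with an SE of 1.62 and bounds of -3.88 and 3.64, which gives no direction. Counts of the second Terc row were not part of this value.

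**Figure D3:**
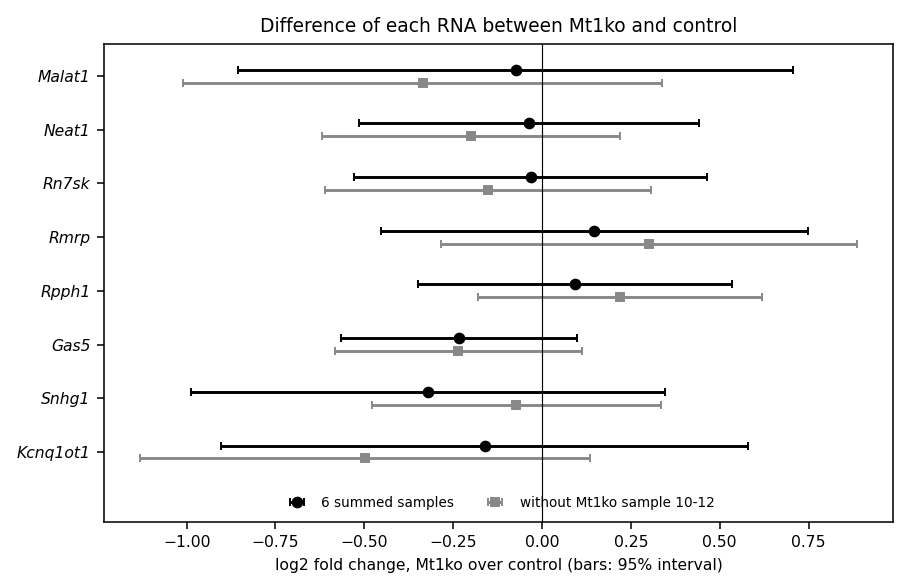
Log2 fold change of Mt1ko over control for 8 RNAs with 95% intervals, from all 6 summed samples (black) and without Mt1ko sample 10-12 (grey); Terc is not drawn because its interval runs from -3.88 to 3.64. Every interval includes 0, and Kcnq1ot1 and Malat1 move farthest to the left in grey, to -0.50 and -0.34.

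Libraries carry 1 of 3 second index sequences, and levels were also set side by side within these. With the first index, Malat1 had a median of 15341 CPM in 3 Mt1ko libraries, all of sample 4-6, against 27508 CPM in 5 control libraries, and with the second index 31121 CPM in 4 Mt1ko libraries against 31012 CPM in 3 control libraries. Gas5 was lower in Mt1ko with both, at 45.9 against 51.8 CPM and at 45.8 against 68.4 CPM. Snhg1 was lower as well, at 16.8 against 18.9 CPM and at 7.53 against 11.9 CPM, and Rmrp was at 213 against 131 CPM with the first index and 107 against 112 CPM with the second. The first index was on no library of Mt1ko samples 10-12 and 16-18, and 3 of the 4 Mt1ko libraries with the second index were libraries 10 to 12. The remaining one, library 16, had Gas5 at 54.8 CPM and Snhg1 at 17.3 CPM, inside the control ranges of 52.6 to 77.3 CPM and 9.89 to 20.8 CPM with that index. These are medians of libraries with no test, and the third index was carried by 2 Mt1ko libraries only.

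Across single libraries, 3 of the long nuclear RNAs moved together. Inside each of the 6 summed samples, the libraries stood in the same order for Malat1 and Neat1, in 6 of 6 samples; only 0.116% of 7774 genes with a mean of at least 10 CPM followed the order of Malat1 in all 6. Kcnq1ot1 followed it in 5 of 6 samples, and 1.26% of genes did so in 5 or more, and the exception was Mt1ko sample 4-6. Rpph1 stood in the opposite order to Malat1 in 4 of 6 samples and in the same order in 1, and 4.77% of genes were opposite in 4 or more. Rmrp was opposite in 3 samples and in the same order in none, and 16.5% of genes were opposite in 3 or more, so this count is not particular to Rmrp. Rn7sk was in the same order as Malat1 in 2 samples and in the opposite order in 1. Rmrp and Rpph1 shared their order in 4 of 6 samples, and 3.99% of genes shared the order of Rmrp in 4 or more. Control sample 14-15 has only 2 libraries, whose order is either the same or the opposite. These counts describe libraries that share a sample, a depth and a denominator, and they carry no test.

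The size of these shifts can be read from single samples. In control sample 1-3, Malat1 was at 20319, 14046 and 27508 CPM in libraries 1, 2 and 3, and Neat1 at 1481, 848 and 2107 CPM. Kcnq1ot1 was at 160, 78.2 and 268 CPM in the same libraries. Library 2 was lowest and library 3 highest for all of these, and highest over lowest was 1.96-fold for Malat1, 2.49-fold for Neat1 and 3.42-fold for Kcnq1ot1, against a median of 1.27-fold over genes. Rmrp was at 226, 219 and 131 CPM and Rpph1 at 1252, 1314 and 968 CPM in libraries 1, 2 and 3, so that library 3 was lowest for both. Malat1 also varied more than most genes did in Mt1ko samples 4-6 and 16-18 and in control sample 14-15. Its highest over lowest library there was 1.44-fold, 1.77-fold and 1.61-fold, each above the median over genes in that sample. In Mt1ko sample 10-12 and control sample 7-9, Malat1 varied less than most genes did. Its highest over lowest library was 1.60-fold in Mt1ko sample 10-12, against a median of 2.00-fold over genes, and 1.31-fold in control sample 7-9, against 1.39-fold. In Mt1ko sample 16-18, Malat1 was at 29402, 18464 and 32594 CPM, Neat1 at 1746, 1004 and 1852 CPM and Rmrp at 203, 134 and 121 CPM in libraries 16, 17 and 18. Library 17 was lowest for Malat1 and Neat1, while Rmrp was lowest in library 18.

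Set against its own median over 17 libraries, Malat1 was on the same side as Neat1 in 14 of the 15 libraries in which neither was at its median, and Neat1 on the same side as Kcnq1ot1 in 15 of 15. Of 7774 genes, 1.72% were on the side of Malat1 in 14 or more libraries and 0.193% on the side of Neat1 in 15 or more. Rn7sk was on the side of Malat1 in 12 of 15 libraries, as were 8.84% of genes in 12 or more. Malat1 and Rmrp were on opposite sides in 11 of 15 libraries, and so were Malat1 and Rpph1, but 24.1% of genes were opposite to Malat1 in 11 or more. Kcnq1ot1 and Rmrp were on opposite sides in 12 of 15, against 13.9% of genes in 12 or more. Over all libraries, Malat1 spanned 13738 CPM in Mt1ko library 5 to 45450 CPM in control library 9, a 3.31-fold range, and Kcnq1ot1 spanned 77.5 CPM in the library labelled Mt1ko with number 6 to 409 CPM in control library 9, a 5.28-fold range. Rpph1 and Rn7sk had the narrowest ranges among the members, 1.83-fold (718 to 1317 CPM) and 1.90-fold (1879 to 3571 CPM), against a median of 2.99-fold over 7920 genes. Rn7sk was highest in the 3 libraries of control sample 7-9, at 3571, 3444 and 3392 CPM, which lay above all other libraries.

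**Figure D4:**
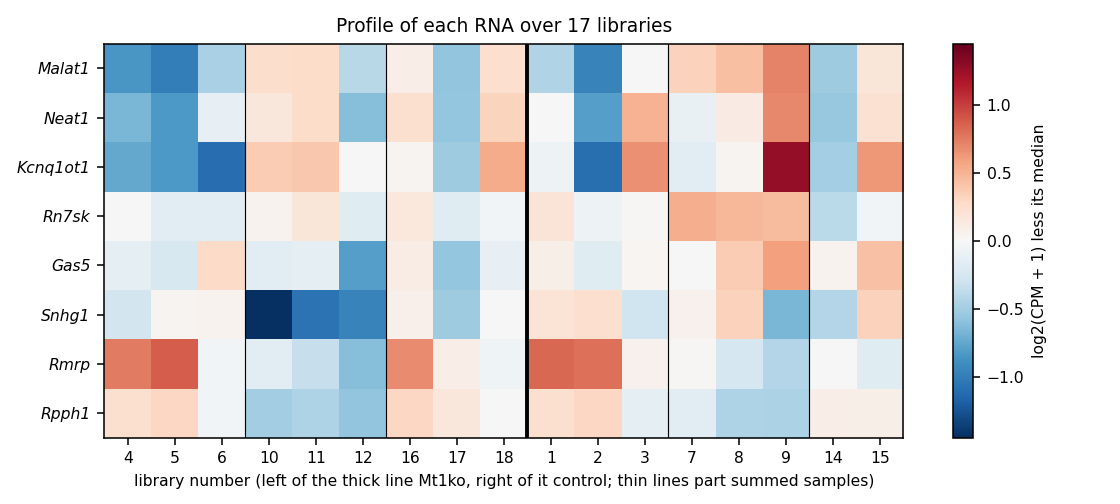
Level of 8 RNAs in each of 17 libraries as log2(CPM + 1) less the RNA's own median over libraries, red above and blue below it, with Mt1ko libraries left of the thick line and control libraries right of it. Malat1, Neat1 and Kcnq1ot1 are blue in libraries 4, 5 and 2, where Rmrp, at 213 to 233 CPM, is red, and Snhg1 is darkest blue in libraries 10 to 12.

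The gene whose library profile lay closest to Malat1, among 7774 genes, was Neat1, with a mean absolute difference of 0.19 (log2) after each was centred on its median. Slc25a37, the mitochondrial iron carrier mitoferrin, and Ppp1r12b, a myosin phosphatase subunit, came next, at 0.19 and 0.21. Neat1 was closest to Ppp1r12b (0.18), D10Wsu102e (0.19) and Malat1. Kcnq1ot1 was closest to D10Wsu102e (0.19) and to the vomeronasal receptor genes Vmn2r53 (0.21) and Vmn1r229 (0.21), of which Vmn1r229 was at 4.62 to 24.4 CPM. Rmrp was closest to Rn7s1 and Rn7s2, both at 0.21, which are copies of the 7SL RNA of the signal recognition particle, also made by RNA polymerase III. Both rows held identical counts in every library, 2682 to 4961 CPM, so they are 1 measurement. Naaa came next, at 0.22. Of the members made by RNA polymerase III, Rpph1 differed from Rmrp by 0.25, with 11 genes closer to Rmrp. Seen from Rpph1, 1780 of 7774 genes were closer to it than Rmrp was. Rn7sk differed from Rmrp by 0.47, with 4428 of 7774 genes closer to Rmrp.

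Rpph1 had the closest neighbours of all members: Mvp, the major vault protein, at 0.07 and the co-chaperone gene Ptges3 at 0.10. Rn7sk was closest to Fyb, an adaptor protein of blood cells (0.10), to the splicing factor gene Hnrnph1 (0.11) and to Ptprs (0.11). Gas5 was closest to Pld1 (0.14), Ccnl1 (0.15) and Luc7l3 (0.15), the last 2 of which encode proteins of splicing. Snhg1 was closest to Dync1li2 (0.20), Dpp3 (0.21) and Irak4 (0.22). Over its own libraries, the mean absolute deviation from the median was 0.41 for Snhg1, 0.19 for Rn7sk and 0.53 for Kcnq1ot1 on the same scale.

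Libraries 10 to 12 are a single Mt1ko sample, so they were described against the 14 other libraries without a test. Malat1 was at 32840, 33184 and 20776 CPM in libraries 10, 11 and 12, against 13738 to 45450 CPM in the others, and the ratio of medians was 1.37. Control libraries 7, 8 and 9 were higher than these, at 34765, 37373 and 45450 CPM. Kcnq1ot1 was at 218, 221 and 168 CPM, against 77.5 to 409 CPM, a ratio of 1.40, and Neat1 at 1663, 1777 and 962 CPM, against 833 to 2409 CPM, a ratio of 1.17. The median ratio over 8113 genes was 0.74, in libraries of which mitochondrial rows took 23.7% to 32.2% of counts, against 5.53% to 12.5% in the others. With counts outside mitochondrial rows as the denominator, the ratios were 1.71 for Malat1, 1.75 for Kcnq1ot1 and 1.52 for Neat1, against a median of 0.96 over 8296 genes. No member had all 3 libraries above the 14 others on either scale, as 1.04% of all genes tested had by all counts and 2.44% outside mitochondrial rows.

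Rn7sk in libraries 10 to 12 was at 2571, 2797 and 2183 CPM, against 1879 to 3571 CPM in the others, a ratio of 1.05, or 1.37 outside mitochondrial rows. Rpph1 was at 753, 779 and 718 CPM, against 777 to 1317 CPM, a ratio of 0.66, or 0.86 outside mitochondrial rows, and Rmrp at 113, 99.7 and 81.8 CPM, against 93.8 to 233 CPM, a ratio of 0.77, or 0.95. The lowest of the others was control library 9 for both Rpph1 and Rmrp. Gas5 was at 45.6, 46.0 and 28.8 CPM, against 33.9 to 77.3 CPM, a ratio of 0.87, or 1.08. Gas5 and Rn7sk thus lay above the median ratio over genes, and Rpph1 below it, on both scales. Rmrp lay just above it in CPM of all counts and just below it outside mitochondrial rows.

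Snhg1 had the lowest ratio of libraries 10 to 12 over the others among the members with a median of at least 10 CPM. It was at 5.33, 7.26 and 7.81 CPM in libraries 10, 11 and 12, against 9.89 to 20.8 CPM in the 14 others, a ratio of medians of 0.43. It was the only member with all 3 libraries below all others. The same held for 10.4% of all 16666 genes tested, and for 15.4% of the 8113 with a median of at least 10 CPM in the others. Outside mitochondrial rows Snhg1 was at 7.42 to 11.5 CPM, against 11.3 to 23.1 CPM, so the ranges overlapped there. On that scale 4.36% of genes tested were below all others. Terc had 0 counts on its counted row in all 3 libraries. Mitochondrial share, gene number and mast cell markers moved with libraries 10 to 12, as given above. Of the other libraries, control library 9 came nearest in mitochondrial share (12.5%) and in genes with a count (14823). A control library also held the highest mast cell sum of the others, 1691 CPM. In libraries 10 to 12, 6 stroma and endothelium markers summed to 50.6 to 116 CPM, against 9.78 to 47.8 CPM in the others. Monocyte and macrophage markers summed to 6406 to 7067 CPM in libraries 10 to 12 and 6763 to 11235 CPM in the others. No defining mast cell marker of the 8 was at 0 in all libraries, and the part of these in the levels of the noncoding RNAs was not tested.

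**Figure D5:**
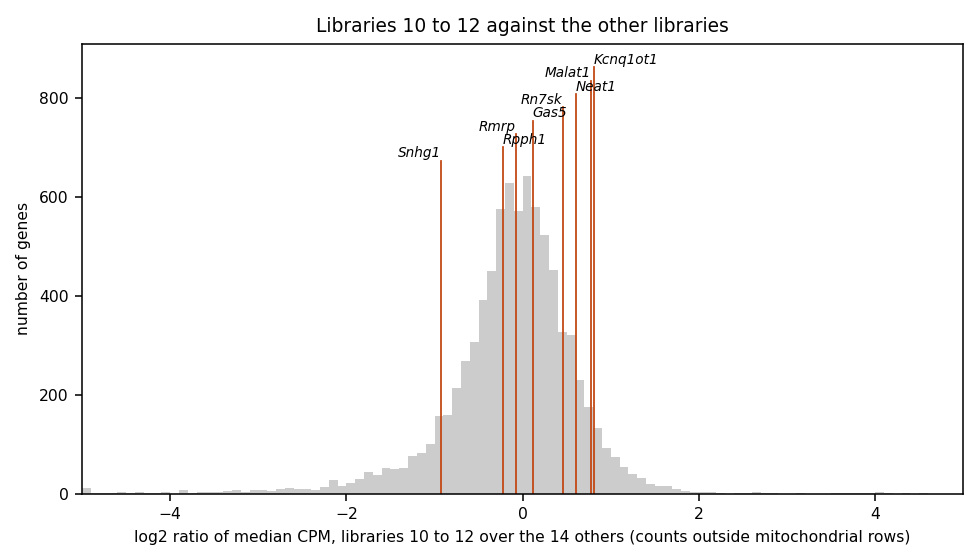
Number of genes by the log2 ratio of median CPM in libraries 10 to 12 over the 14 other libraries, with counts outside mitochondrial rows as the denominator (grey, 8296 genes with a median of at least 10 CPM in the others, ends of the axis pooled); orange lines mark 8 RNAs. Malat1 and Kcnq1ot1 lie on the right, with ratios of 1.71 and 1.75, and Snhg1 on the left, with 0.53.

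The protein partners of these RNAs were read from lists of their complexes in the fit of Mt1ko against control. No gene of any list was called, against 0% of all genes. Of 15 paraspeckle proteins, which bind Neat1, 8 were above and 7 below 0, with a median log2 fold change of 0.01, and the essential paraspeckle proteins Sfpq and Nono had values of 0.02 (SE 0.18) and 0.03 (SE 0.11). Of 15 nuclear speckle proteins, 4 were above and 11 below 0, with a median of -0.05, and Srrm2 and Son, the core of speckles, had -0.06 each (SE 0.12). Among 9 proteins of the 7SK particle and P-TEFb, 2 were above and 7 below 0, with a median of -0.04, but 5 were above 0 and the median was 0.06 without Mt1ko sample 10-12. Cdk9, the kinase of P-TEFb, averaged 77.3 ± 13.0 TMM-scaled CPM in Mt1ko and 77.9 ± 4.71 in control samples (SD, n = 3 each), and Hexim1, the inhibitor that 7SK brings to it, 58.9 ± 17.3 and 62.0 ± 6.61.

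Of 11 proteins of RNase P and RNase MRP, 6 were above and 5 below 0, with a median of 0.03. Pop5 was below control in all 3 Mt1ko samples (16.7 ± 0.058 TMM-scaled CPM in Mt1ko, 22.01 ± 4.07 in control) and Rpp21 above it (13.0 ± 2.97 and 9.45 ± 0.61), as was Pop7. Of all genes, 4.36% had Mt1ko samples wholly below and 2.74% wholly above control samples; these 3 were named after their values were seen and none was called. Of 10 genes of the telomerase holoenzyme, 3 were above and 7 below 0, with a median of -0.04; without Mt1ko sample 10-12, 6 were above 0 and the median was 0.07. Nhp2, which binds H/ACA RNAs such as Terc, was at 53.1 ± 10.1 TMM-scaled CPM in Mt1ko and 37.7 ± 2.96 in control samples, with no overlap, as for 2.74% of genes in that direction, a log2 fold change of 0.50 (SE 0.17) and an adjusted p of 1.00 by edgeR. The RNA polymerase III list of 33 genes was split into 16 above and 17 below 0, with a median of -0.02, and had 21 above 0 and a median of 0.07 without Mt1ko sample 10-12. Its most abundant member was Bdp1, a subunit of the initiation factor TFIIIB, at 175 ± 15.2 and 155 ± 7.44 TMM-scaled CPM in Mt1ko and control samples.

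Other noncoding RNAs were set beside the members. Of 34 rows of structural RNAs in the table, 23 were tested, and 21 of these were above 0 and 2 below, with a median log2 fold change of 0.25. Without Mt1ko sample 10-12, 24 were tested and 23 of these were above 0, with a median of 0.25. Several of the rows are not separate measurements, however: Rn7s1 equals Rn7s2, and the Rnu3b genes hold 2 sets of rows with identical counts. The most abundant, Rn7s1, had a log2 fold change of 0.08 (SE 0.17), and the small Cajal body RNA Scarna13 of 0.80 (SE 0.32), at 15.3 ± 6.24 TMM-scaled CPM in Mt1ko and 8.84 ± 0.37 in control samples. Of 22 tested snoRNA host genes, 11 were above and 11 below 0, with a median of 0.01. Of 16 tested long noncoding RNAs outside the members, 8 were above and 8 below 0, with a median of -0.05, and 6 were above 0 with a median of -0.23 without Mt1ko sample 10-12. Xist, the RNA that silences 1 X chromosome in female cells, was at 14.5, 214 and 8.37 TMM-scaled CPM in Mt1ko samples 4-6, 10-12 and 16-18, against 8.31, 38.3 and 27.1 in control samples 1-3, 7-9 and 14-15. Sample 10-12 lay above all other samples, and the log2 fold change was 1.68 (SE 1.16), not called. The imprinted RNAs H19, Meg3 and Airn were at 0 in every library.

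Genes next to the members in the genome were read in the same way. Of 14 genes of the imprinted domain of Kcnq1ot1, 7 were tested, with 2 above and 5 below 0 and a median of -0.08, but 5 above 0 and a median of 0.04 without Mt1ko sample 10-12. Nap1l4 and Cd81 were its most abundant genes, at 117 ± 30.5 and 54.0 ± 15.5 TMM-scaled CPM in Mt1ko samples, against 124 ± 15.3 and 61.4 ± 6.24 in control samples. Of the targets that Kcnq1ot1 is known to silence, Cdkn1c averaged 0.021 CPM in Mt1ko samples and was at 0 in control samples, and Phlda2 was at 0 in both. Of 12 genes around Malat1 and Neat1, 6 were above and 6 below 0, with a median of 0.01, and the most abundant, Ehbp1l1, averaged 271 ± 16.4 TMM-scaled CPM in Mt1ko and 271 ± 2.62 in control samples.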

How the data were processed

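Total RNA was isolated with a column kit including DNase digestion and made into libraries with a SMARTer stranded total RNA kit for very small inputs, per the labels' protocols. Trimmomatic 0.35 and RSEM 1.3.3 are named per the submitters' processing notes, with builds GRCm38 and mm10; roles, aligner, annotation and strand setting were not stated. Both deposited tables hold whole-number counts per gene, made by the authors, for 17 libraries and for 6 sums, and each sum equalled its libraries in all genes. The members and the gene lists were chosen with earlier results of these data known. Of 56305 identifiers, 55141 matched GENCODE M21, which gave coordinates, lengths and sequences; the counted Terc row did not match, and the row with the highest total was used for a symbol with several. Near copies were sought with blastn 2.17.0.

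The 6 sums entered edgeR 4.0.16 (R 4.3.3) with its filterByExpr filter, TMM scaling and the quasi-likelihood F test for group alone, with Benjamini-Hochberg adjusted p under 0.05 as the call, after a run on simulated counts. An SE is the size of the log2 fold change over the square root of F, and 95% bounds follow from the degrees of freedom of that test. Library profiles used log2(CPM + 1). Named genes were all members, the 3 nearest profiles of each (no predicted or mitochondrial loci; 1 gene is not reported here), Mt1, and up to 4 of the most abundant genes of each list and of the rows overlapping a member; Lyz2, Nono, Hexim1, Cdk9, Nhp2, Scarna13, Pop5, Rpp21, Pop7, Cdkn1c, Phlda2, Xist, H19, Meg3 and Airn were in part named after their values were seen. Alternatives were other scalings, filters, thresholds, DESeq2 1.42.0, limma-voom (limma 3.58.1), single libraries, and leaving out samples or library 6. The files give no molecular identifiers, so PCR copies are counted too, and limits cover counting error only.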

Additional observations from a re-analysis of the deposited data

How the results depend on the processing

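No member and no gene of the companion lists was called under any of the 20 alternatives run. The count of all genes called was 0 in the comparison as reported and 1 (Mt1) with 17 libraries entered singly, with the summed sample as a random effect, with DESeq2, without library 6, and without library 6 and libraries 10 to 12; leaving out single samples gave 0 to 0. Gas5 (-0.36 to -0.17) and Snhg1 (-0.51 to -0.07) kept a log2 fold change below 0 in all 19 alternatives. Without Mt1ko sample 4-6 the sign turned for Malat1 (0.16), Neat1 (0.13), Rn7sk (0.03), Rmrp (-0.048) and Kcnq1ot1 (0.14). Without control sample 7-9 it turned for Malat1 (0.23), Neat1 (0.07), Rn7sk (0.18), Rmrp (-0.0003), Rpph1 (-0.046) and Terc (0.03), and without Mt1ko sample 16-18 for Rn7sk (0.02) and Terc (0.06). Terc also turned without Mt1ko sample 10-12 (0.46), with the second index as a covariate (0.11), without library 6 (0.14), and without library 6 and libraries 10 to 12 (0.72). Over the samples left out in turn, values ran from -0.34 to 0.23 for Malat1, -0.20 to 0.13 for Neat1, -0.18 to 0.18 for Rn7sk, -0.048 to 0.45 for Rmrp, -0.046 to 0.22 for Rpph1, -1.52 to 0.46 for Terc and -0.50 to 0.14 for Kcnq1ot1. Some of the other alternatives went beyond these ranges. Without library 6 and libraries 10 to 12, Malat1 was at -0.40, Neat1 at -0.30, Rmrp at 0.46 and Rpph1 at 0.28. Kcnq1ot1 was at -0.52 with the second index as a covariate, and Terc at -1.74 with limma-voom. With library totals alone, which moved the median of all genes to -0.12, Rpph1 was at -0.0095. The causes were not tested. No paired analysis was possible because the Mt1ko and control samples share no replicate number. With 3 samples a group, intervals of the well detected members reached 0.10 to 0.75 above 0 and 0.35 to 0.99 below it on the log2 scale. A larger change can also go uncalled here: Mt1 had a log2 fold change of -1.85 (SE 0.34) and an adjusted p of 1.00 by edgeR as reported. The counted Terc row had 289 counts in all and the second row 110, and counts varied within samples.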
